A study of Rattus norvegicus with 12 samples.

Results

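The 6 genes described here are genes of motile cilia and sperm tails, followed across the 4 groups of rat striatum: Cimap2, Spmap2, Spmip8 and Adcy10, set beside Foxj1 and Tmem212, which mark the ciliated ependymal cells of the ventricle wall. Every probe on the array whose transcript accession carries one of these 6 symbols was taken, which gave 1 probe for each gene, 6 of the 30367 distinct probes. Cimap2, Spmap2, Spmip8 and Adcy10 were picked because their signals on these same arrays differed between groups, Cimap2 with L-DOPA and with zonisamide, Spmap2 with the lesion, and Spmip8 and Adcy10 with zonisamide. Their values are therefore a description, given with no p-value. Foxj1 and Tmem212 were taken as markers of the ependyma, and their differences were tested. All 6 passed the filter on dim probes and were among the 19412 features tested. Cimap2 passed it through the L-DOPA group alone, and the other 5 were above background on all 12 arrays.

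RNA came from the striatum of male Wistar rats on 12 Agilent 1-colour arrays, 3 per group and, per the series' design, 3 animals per group. All rats had received 6-hydroxydopamine (6-OHDA), a toxin of dopamine neurons, in the left medial forebrain bundle, the tract of dopamine fibres to the striatum. After 2 to 3 weeks they were challenged with 3 mg/kg of methamphetamine, and those that made 7 or more turns per minute were kept. The first group was the lesioned side after daily L-DOPA, the precursor of dopamine, at 100 mg/kg together with zonisamide, a drug against seizures that is also given for Parkinson's disease, at 50 mg/kg. Zonisamide followed L-DOPA by 30 min, and L-DOPA followed benserazide, which blocks its conversion outside the brain. The second group was the lesioned side after L-DOPA at 100 mg/kg without zonisamide, and the third was the lesioned side after saline. The last was the non-lesioned side of saline-treated rats, so it is the other hemisphere of lesioned animals and not the striatum of intact ones. Treatment lasted 7 days. The labels do not say whether the lesioned and non-lesioned saline arrays share animals, and they give no age.

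Motile cilia and sperm tails are built around the same microtubule scaffold, the axoneme, which dynein motors bend and which proteins bound inside and outside the microtubules hold together. In the adult brain beating cilia are carried by the ependymal cells that line the ventricles, next to the striatum, and the epithelium of the choroid plexus in the ventricle also expresses Foxj1. Foxj1 is the transcription factor that switches on the genes of motile cilia, acting with RFX factors that bind the promoters of ciliary genes. Cimap2 (formerly Lexm) encodes a ciliary microtubule-associated protein. Spmap2 (formerly Theg) and Spmip8 (formerly Tepp) encode sperm microtubule-associated proteins that are best known from testis. Adcy10 encodes soluble adenylyl cyclase, which makes cyclic AMP in response to bicarbonate and calcium and is needed for sperm to swim. Tmem212 encodes a membrane protein used as an ependymal marker.

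The promoters of the 3 genes with the widest drug differences are printed because their levels are set beside that of Foxj1 below, and the letters bound by Foxj1's family and by RFX factors can be looked for in them. Each is the 250 bases upstream of the transcript start in RefSeq's GRCr8 assembly. Capitals mark GTTGCC, the core of the motif bound by RFX factors, searched together with its reverse complement GGCAAC.
Cimap2, chr5:126630693-126630942, minus strand: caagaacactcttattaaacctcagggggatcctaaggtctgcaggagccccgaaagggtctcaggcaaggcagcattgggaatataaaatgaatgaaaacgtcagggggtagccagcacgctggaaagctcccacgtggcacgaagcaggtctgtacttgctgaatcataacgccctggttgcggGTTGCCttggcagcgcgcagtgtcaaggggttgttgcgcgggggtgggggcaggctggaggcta
Adcy10, chr13:80284066-80284315, plus strand: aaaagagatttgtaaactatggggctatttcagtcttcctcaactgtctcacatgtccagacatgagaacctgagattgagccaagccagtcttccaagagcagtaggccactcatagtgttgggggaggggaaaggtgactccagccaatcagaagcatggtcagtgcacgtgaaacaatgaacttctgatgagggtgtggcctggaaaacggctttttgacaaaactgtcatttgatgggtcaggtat
Spmip8, chr19:9728310-9728559, minus strand: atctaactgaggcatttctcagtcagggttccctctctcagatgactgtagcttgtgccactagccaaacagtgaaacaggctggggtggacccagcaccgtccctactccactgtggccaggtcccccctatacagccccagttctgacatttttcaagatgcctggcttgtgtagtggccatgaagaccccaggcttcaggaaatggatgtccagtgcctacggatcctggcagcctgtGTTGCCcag
Entries were found for 4 of the 6 genes, the fourth being Tmem212 at chr2:112741869-112742118 on the minus strand. The letters GTTGCC occurred in the Cimap2 promoter, 64 to 59 bases before the start, and in that of Spmip8, 9 to 4 bases before it, and were not found in those of Adcy10 or Tmem212. The forkhead letters TGTTTAC, or GTAAACA on the other strand, were in none of the 4 windows. Only these exact letters were searched, so variants of either motif may be present. Over all 33469 rat promoters of the same length, 9.893% held the RFX letters and 3.215% the forkhead letters. A match of so few letters describes the sequence only.

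Levels are log2 processed signal minus the log2 75th percentile of that array, so that 0 is the 75th percentile and each step down is a factor of 2. The percentile itself lay between 793 and 1737 intensity units, and the scanner marked 67.6% to 74.0% of probes as well above background. Any 2 arrays correlated at 0.935 to 0.984. The spread between replicate spots was over 20% on 5 arrays, namely replicate 3 of L-DOPA with zonisamide, replicate 3 of L-DOPA and all 3 of the non-lesioned side. Values without those arrays are given below, except for the lesion comparison, which cannot be made without them. Striatal tissue was checked with Pdyn, the dynorphin precursor of spiny neurons. Its level was 3.44 ± 0.18 with both drugs, 4.18 ± 0.32 with L-DOPA, 2.43 ± 0.38 on the lesioned saline side and 3.11 ± 0.11 on the non-lesioned side (SD, n = 3 each). It rose with L-DOPA by 1.75 ± 0.22 log2 units (SE, adjusted p = 0.0151, limma with Benjamini-Hochberg adjustment).

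**Figure D1:**
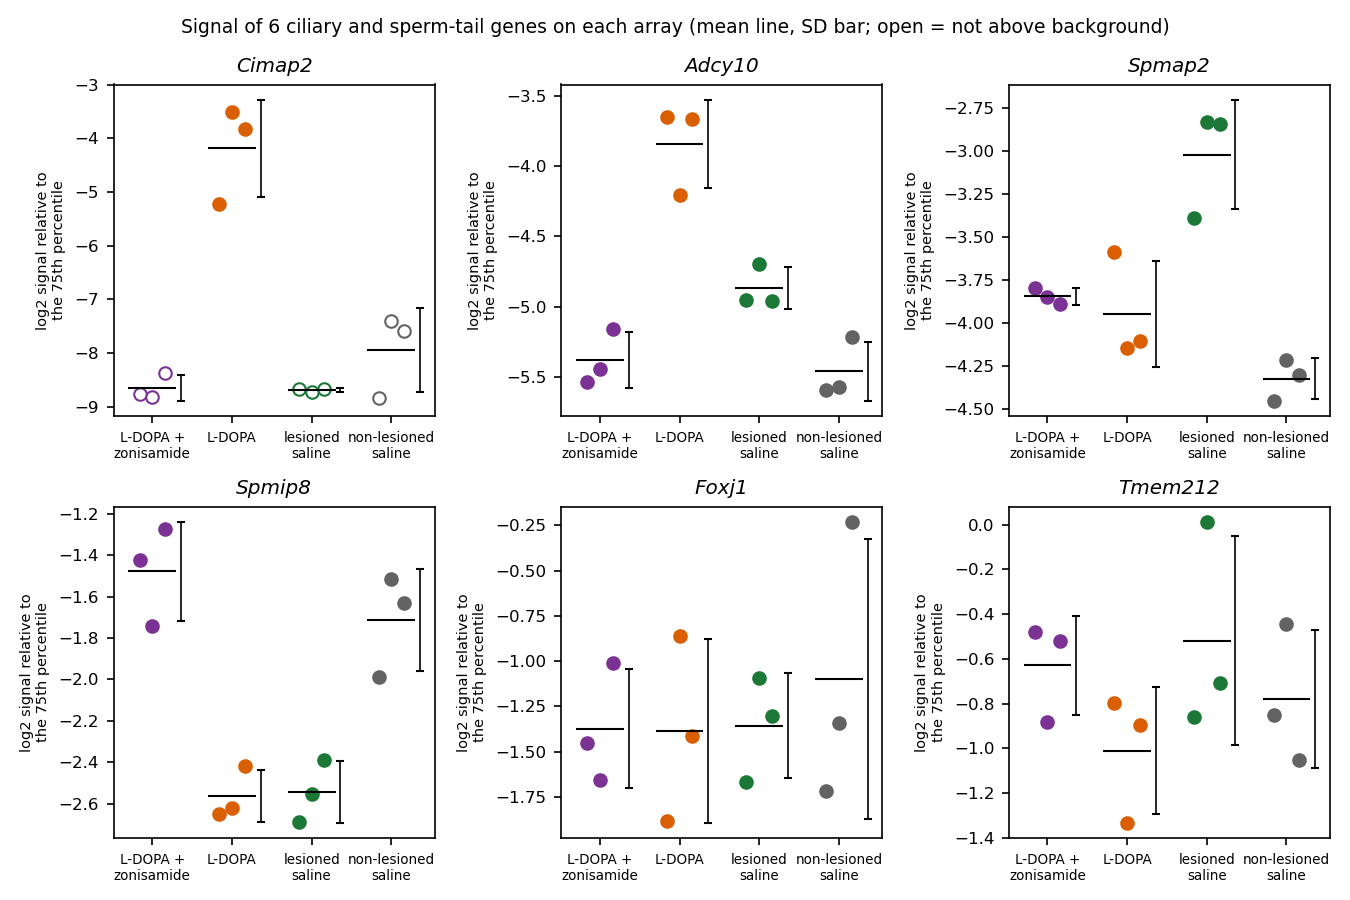
Level of each gene on every array (log2 signal relative to the array's 75th percentile), by group from L-DOPA with zonisamide to non-lesioned saline. Points are arrays, lines are means, bars are SD (n = 3), and open points were not well above background. Cimap2 was above background on the 3 L-DOPA arrays and on no other, while Foxj1 and Tmem212 overlapped between groups.

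Cimap2 was measurable in 1 group, the L-DOPA rats, and lay in the background of the arrays in the other 3. Its single spot gave levels of -8.77, -8.81 and -8.37 with L-DOPA and zonisamide, -5.22, -3.52 and -3.82 with L-DOPA, -8.67, -8.73 and -8.68 on the lesioned saline side, and -8.84, -7.40 and -7.59 on the non-lesioned side. The L-DOPA arrays stood at least 2.18 log2 units above every other array, and the other 3 groups overlapped each other. In intensity units the 3 L-DOPA arrays read 31.8, 108.5 and 60.9, and no other array read more than 7.34. Each dim array was also counted at the lowest signal that it marked as well above background. Cimap2 was then 12.9-fold lower with zonisamide added than with L-DOPA, and 11.2-fold higher with L-DOPA than with saline. These folds are no strict bounds, since an unmarked signal can lie above the lowest marked one. On non-lesioned replicates 2 and 3 Cimap2 was unmarked at -7.40 and -7.59, where the lowest marked signals were -7.86 and -8.01.

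The measured differences, dim values included, were -4.46 ± 0.46 log2 units for zonisamide added to L-DOPA and 4.50 ± 0.46 for L-DOPA against lesioned saline (limma's SE). Those for both drugs against lesioned saline and for the lesion were 0.04 and -0.75. Cimap2 was one of the 93 features (0.479% of all tested) that passed with zonisamide and of the 84 (0.433%) that passed with L-DOPA. That is how it came to be described. It passed in both with the replicate block, where 13 and 34 features did. It passed in neither under normexp, with only the groups compared, with slide as a fixed block, or without the 5 arrays of high spot spread. These fits use the arrays that picked it, so a pass there is no further support. The 2 comparisons share the L-DOPA arrays, so the drop with zonisamide is no second measurement of the L-DOPA level. Arrays of 1 slide can be compared directly: zonisamide minus L-DOPA was -3.55, -5.30 and -4.55 on the 3 slides that held both, and L-DOPA minus lesioned saline was 3.45 and 5.21 on 2 slides. Because the probe has 1 spot per array, no spread between spots can be given, and normexp background correction, which adds 50 intensity units before the log, reduced the differences to -1.09 and 1.32. Without the 5 arrays of high spot spread they were -4.42 and 4.32.

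Choroid plexus markers were also highest, on average, in the L-DOPA group. Ttr, the transthyretin gene of that epithelium, had levels of 4.28, 2.72 and 6.67 with both drugs, 4.31, 7.27 and 6.89 with L-DOPA, -0.74, 4.35 and 3.30 on the lesioned saline side and 2.32, 3.05 and 6.73 on the non-lesioned side. The mean level of the 13 tested choroid plexus markers ranged over arrays from -3.60 to 0.01 with both drugs, from -2.49 to 1.21 with L-DOPA, from -3.97 to -2.65 on the lesioned saline side and from -3.34 to 1.91 on the non-lesioned side. All 13 had a positive L-DOPA difference, with a median of 2.64, and a negative zonisamide difference, with a median of -1.54. All 13 were also lower with the lesion, with a median of -1.57, and higher with both drugs than with saline, with a median of 0.99. Spmip8 has those signs in these comparisons, but the opposite sign with zonisamide (1.09) and a value of -0.02 with L-DOPA. Across the 12 arrays the level of Ttr correlated with that of Cimap2 at 0.59, of Adcy10 at 0.40, of Spmip8 at 0.18 and of Spmap2 at -0.31. The points share groups and slides. None of the 13 passed in any comparison with limma, and 1 reached an unadjusted p under 0.05, with L-DOPA. With Ttr as a covariate the Cimap2 differences were -4.23 with zonisamide and 3.94 with L-DOPA. In that fit Cimap2 passed with zonisamide, where 10 features did, and not with L-DOPA, where 0 did. Vascular markers, 9 tested, had a median difference of -0.76 with zonisamide, 0.25 with L-DOPA, 0.31 with the lesion and -0.44 with both drugs against saline. For 7 markers of the subventricular zone the medians were -0.36, 0.25, 0.24 and -0.11. Adcy10, described next, has the same signs in these comparisons. None of either list passed with limma. There 4 vascular and 3 subventricular markers had an unadjusted p under 0.05 with zonisamide, 2 and 1 with L-DOPA, 2 and 2 with the lesion, and 4 and 0 with both drugs. Of all 19412 features, 2408 had an unadjusted p under 0.05 in limma with zonisamide, 2192 with L-DOPA, 1646 with the lesion and 1424 with both drugs. Of 8 microglial markers, 2 had a positive difference with zonisamide, 2 with L-DOPA, 8 with the lesion and 0 with both drugs against saline, with medians of -0.31, -0.33, 0.21 and -0.30. None passed with limma, where 2, 1, 1 and 1 had an unadjusted p under 0.05. The part of these markers in the results was not tested. In whole tissue, fewer cells of a type and less RNA per cell cannot be told apart, here and in all that follows.

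Adcy10, the soluble adenylyl cyclase, was likewise highest with L-DOPA and was low when zonisamide was added. Its levels were -5.54, -5.45 and -5.16 with both drugs, -3.65, -4.20 and -3.67 with L-DOPA, -4.95, -4.70 and -4.96 on the lesioned saline side, and -5.59, -5.57 and -5.22 on the non-lesioned side. In order, L-DOPA stood above lesioned saline with no overlap, lesioned saline stood above both remaining groups with no overlap, and those 2, both drugs and the non-lesioned side, overlapped. The difference was -1.54 ± 0.20 log2 units for zonisamide added to L-DOPA, 1.03 ± 0.20 for L-DOPA against lesioned saline, 0.59 ± 0.20 for the lesion and -0.51 ± 0.20 for both drugs against lesioned saline. As folds, Adcy10 with both drugs was 0.344 times its L-DOPA level, and L-DOPA was 2.04 times lesioned saline. It was among the features that passed with zonisamide, the comparison that chose it, but not among the 13 that passed there with the replicate number, which pairs those arrays, as a block.

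The Adcy10 probe is printed 10 times on each array, more often than any of the other 5. The SD between its spots was 0.10 to 0.34 log2 units, with a median of 0.16, and at least 6 spots per array were free of outlier flags. Within slides the zonisamide difference was -1.89, -1.24 and -1.49, and the L-DOPA difference was 1.30 and 0.49. With Ttr as a covariate they were -1.48 and 0.88, and without the 5 arrays of high spot spread -1.56 and 0.94. In neither fit did Adcy10 pass with zonisamide. Normexp correction gave -0.71 and 0.66, and it reduced the lesion difference to 0.09 and that of both drugs to -0.06.

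Spmap2 stood apart on the lesioned saline side and was lower in each of the other groups. Its levels were -3.80, -3.85 and -3.89 with both drugs, -3.59, -4.15 and -4.11 with L-DOPA, -3.39, -2.83 and -2.84 on the lesioned saline side, and -4.46, -4.22 and -4.30 on the non-lesioned side. The 3 lesioned saline arrays were the 3 highest of the 12 and the 3 non-lesioned arrays the 3 lowest. The drug groups lay between and overlapped each other. The lesion difference was 1.30 ± 0.20 log2 units, or 2.47-fold, and against lesioned saline the differences were -0.93 ± 0.20 with L-DOPA and -0.83 ± 0.20 with both drugs. Zonisamide added to L-DOPA gave 0.10 ± 0.20. No feature passed the lesion comparison (0% called), although 1646 of the 19412 had an unadjusted p under 0.05 in limma, and Spmap2 ranked 8 among all features by p, which is how it was chosen.

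The low non-lesioned level of Spmap2 rests in part on spots that disagreed. The probe has 2 spots per array. On replicate 1 of the non-lesioned side they read -5.99 and -2.92, the upper one as high as the lesioned saline arrays, and on replicate 2 they read -4.76 and -3.68. On replicate 3 of that side they read -4.34 and -4.27. On the 3 lesioned saline arrays the 2 spots lay within 0.26 log2 units of each other, from -3.43 to -2.70. Averaging the spots as intensities before taking the log put replicate 1 of the non-lesioned side at -3.76 and the lesion difference at 1.04. On the slide that held replicate 1 of both sides the difference was 1.07.

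**Figure D2:**
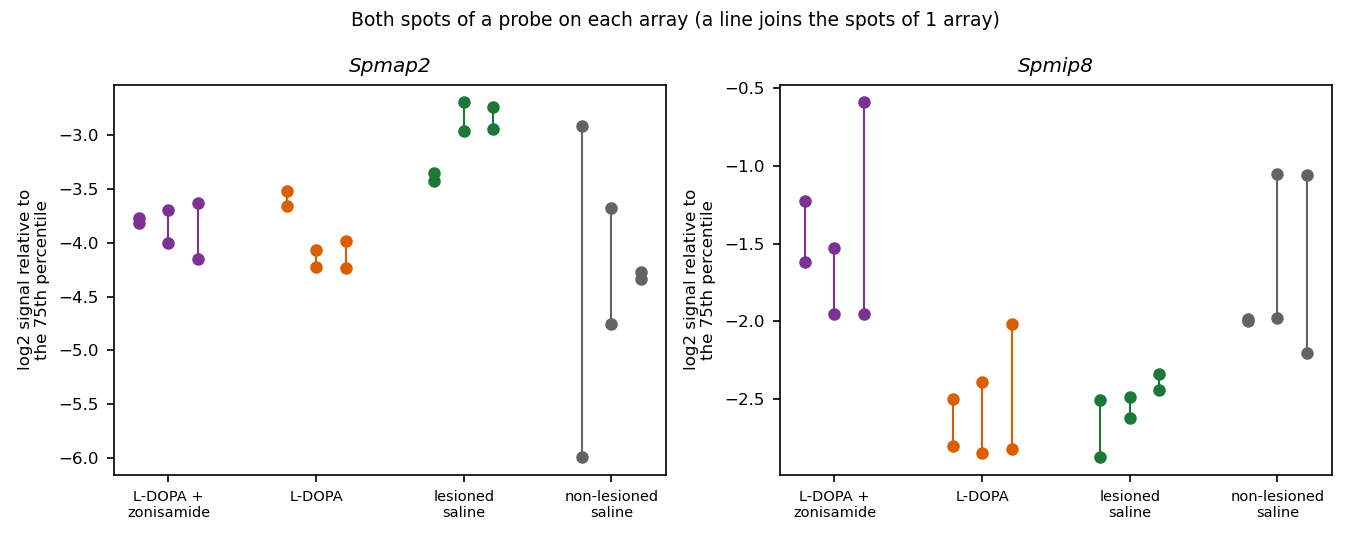
Level of each of the 2 spots of the Spmap2 probe (left) and of the Spmip8 probe (right) on every array, as log2 signal relative to the 75th percentile. A line joins the spots of 1 array. The spots of Spmap2 lay far apart on replicate 1 of the non-lesioned side (-5.99 and -2.92), and those of Spmip8 on replicate 3 of L-DOPA with zonisamide (-1.95 and -0.59).

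Spmip8 divided the 4 groups into a high pair and a low pair. Its levels were -1.42, -1.74 and -1.27 with both drugs, -2.65, -2.62 and -2.42 with L-DOPA, -2.69, -2.55 and -2.39 on the lesioned saline side, and -1.99, -1.52 and -1.63 on the non-lesioned side. Both drugs overlapped the non-lesioned side, and L-DOPA overlapped lesioned saline, but no array of the first pair came within 0.40 log2 units of the second. The difference was 1.09 ± 0.18 log2 units for zonisamide added to L-DOPA, or 2.12-fold, and 1.07 ± 0.18 for both drugs against lesioned saline. It was -0.83 ± 0.18 for the lesion and -0.02 ± 0.18 for L-DOPA against lesioned saline. Spmip8 was among the features that passed with zonisamide, the comparison that chose it, but not among the 13 that passed there with the replicate block. For both drugs against lesioned saline no feature passed (0% called), although 1424 had an unadjusted p under 0.05 in limma.

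Its 2 spots also disagreed on some arrays. They read -1.95 and -0.59 on replicate 3 of L-DOPA with zonisamide, -2.82 and -2.01 on replicate 3 of L-DOPA, -1.98 and -1.05 on replicate 2 of the non-lesioned side and -2.20 and -1.06 on its replicate 3. All 4 arrays are among the 5 of high spot spread. The lower spot of every array with both drugs, at most -1.62 and at least -1.95, lay above the upper spot of every L-DOPA array, at most -2.01. Spmip8 was picked on the difference between these arrays, so their spots describe it and add no support. Within slides the zonisamide difference was 1.23, 0.88 and 1.15, and without the 5 arrays it was 1.05. Normexp correction gave 0.72 for zonisamide, 0.51 for both drugs and -0.34 for the lesion.

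Foxj1, the regulator of the motile cilium programme, gave no difference that passed in any comparison. Its levels were -1.45, -1.65 and -1.01 with both drugs, -1.88, -0.86 and -1.41 with L-DOPA, -1.67, -1.09 and -1.30 on the lesioned saline side, and -1.72, -1.34 and -0.23 on the non-lesioned side. The 4 groups overlapped, and the highest array was replicate 3 of the non-lesioned side, which also had high Ttr. Zonisamide added to L-DOPA gave 0.01 log2 units (95% interval -0.85 to 0.87, adjusted p = 0.993, limma). L-DOPA against lesioned saline gave -0.03 (-0.89 to 0.83, adjusted p = 0.991, limma). The lesion gave -0.26 (-1.12 to 0.60, adjusted p = 0.870, limma), and both drugs against lesioned saline gave -0.02 (-0.88 to 0.84, adjusted p = 0.995, limma).

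The sign of the small Foxj1 values depended on single arrays. The lesion value was 0.17 without non-lesioned replicate 3, and the L-DOPA value was 0.22 without replicate 1 of L-DOPA. With Ttr as a covariate the L-DOPA value was -0.82. Across the 12 arrays the Foxj1 level correlated with that of Ttr at 0.64 and with that of Tmem212 at -0.14, over points that share groups and slides.

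Tmem212, the other ependymal marker, also gave no difference that passed. Its levels were -0.48, -0.88 and -0.52 with both drugs, -0.80, -1.34 and -0.90 with L-DOPA, -0.86, 0.01 and -0.71 on the lesioned saline side, and -0.85, -0.45 and -1.05 on the non-lesioned side. The groups overlapped in every comparison, and replicate 2 of lesioned saline was the highest array. The differences were 0.38 (-0.21 to 0.97, adjusted p = 0.624, limma) for zonisamide added to L-DOPA and -0.49 (-1.08 to 0.10, adjusted p = 0.527, limma) for L-DOPA. They were 0.26 (-0.32 to 0.85, adjusted p = 0.788, limma) for the lesion and -0.11 (-0.70 to 0.48, adjusted p = 0.945, limma) for both drugs against lesioned saline. Both spots of the Foxj1 and Tmem212 probes lay close together, with an SD of at most 0.34 and 0.19 log2 units on any array.

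**Figure D3:**
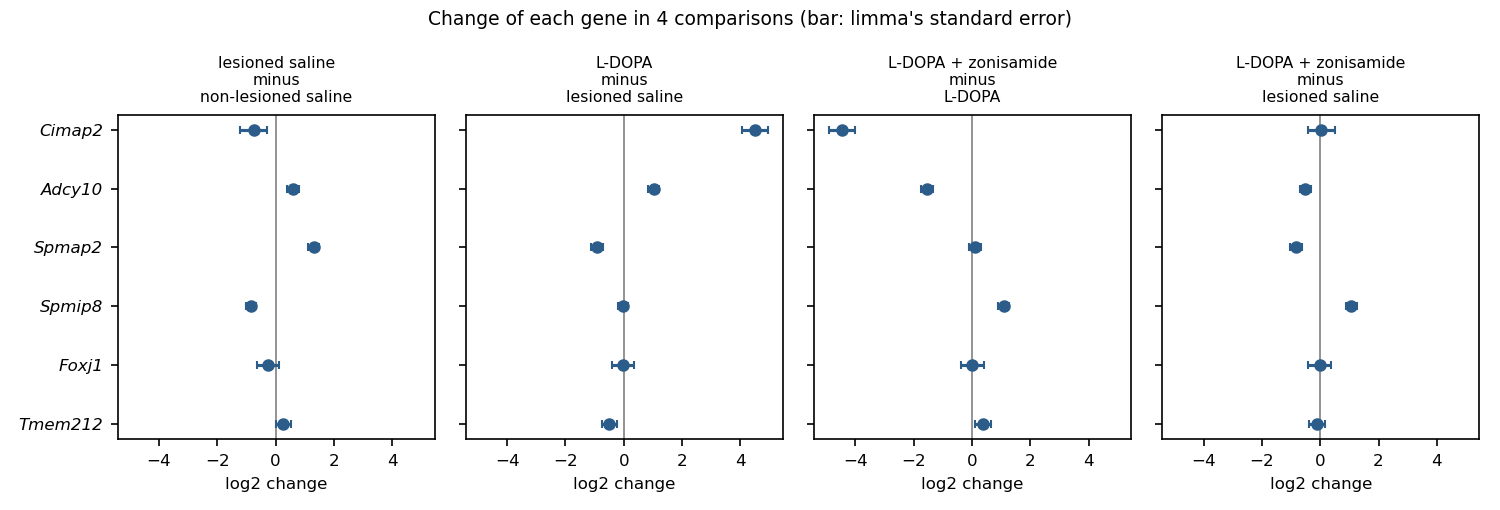
Difference of each gene in the 4 comparisons, in log2 units, with limma's standard error as the bar. Cimap2 stood at 4.50 for L-DOPA and at -4.46 for zonisamide added to L-DOPA, and the Foxj1 and Tmem212 values lay between -0.49 and 0.38.

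Side by side, the 4 picked genes did not share 1 pattern over the groups. Cimap2 and Adcy10 were both highest with L-DOPA and lower with zonisamide added, differences on which they were picked in whole or in part. Their levels correlated at 0.815 across the 12 arrays, and Cimap2 lay in the background outside the L-DOPA group. Spmap2 was highest on the lesioned saline side, and Spmip8 had a high and a low pair of groups. In each comparison 3 of the 6 genes had groups that did not overlap, where the share among all tested features was 17.3% for zonisamide, 22.4% for L-DOPA, 17% for the lesion and 18.1% for both drugs. In the zonisamide comparison they were Cimap2, Adcy10 and Spmip8, with L-DOPA they were Cimap2, Adcy10 and Spmap2, and in the 2 others Spmap2, Spmip8 and Adcy10. Since these genes were picked on such differences, the counts carry no weight of their own. The 12 comparisons without overlap stayed 12 in number with spots averaged before the log2, and became 10 under quantile normalization and 9 under normexp correction.

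For each gene the features with the most similar pattern over the 12 arrays were looked up among the 11110 with a symbol. Each r is thus among the highest of many, over points that share groups and slides. For Cimap2 they were Meox1, Ifitm3 and Tnfrsf1b (Pearson's r 0.960, 0.959 and 0.957). Cimap2 lay in the background outside the L-DOPA group, so its r mainly records a high level on the L-DOPA arrays. Meox1, a homeobox gene, had mean levels of -8.49 with both drugs, -4.58 with L-DOPA, -8.68 on the lesioned saline side and -8.71 on the non-lesioned side. For Adcy10 they were Galnt2, C1galt1 and Nat8f2 (0.918, 0.917 and 0.901). Galnt2 and C1galt1 encode enzymes that start and extend O-linked sugar chains. For Spmap2 they were Slc10a5, Or10ag57 and Pcdhga11 (0.904, 0.880 and 0.878), and for Spmip8 they were Spdya, Mrpl41 and Zc3h6 (0.911, 0.882 and 0.880). Foxj1 was closest to Hfe, Prdx4 and Smim22 (0.914, 0.904 and 0.890), and Tmem212 to Tbxt, Fbxo36 and Kcnk16 (0.924, 0.876 and 0.875).

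Few of the wider set of microtubule inner and associated proteins of cilia and sperm tails passed a test. Of 75 genes listed, 54 were on the array and 38 were tested, Cimap2, Spmap2 and Spmip8 among them. With zonisamide 1 passed higher, Spmip8, and 1 lower, Cimap2, against 0.0876% and 0.392% of all features, and the list's median difference was 0.01 against -0.03 for all features. With L-DOPA 1 passed higher, Cimap2, and none lower, against 0.33% and 0.103% of all features, with a median of 0.02 against -0.03. None passed for the lesion or for both drugs with limma, where 5 and 3 had an unadjusted p under 0.05. All those that passed are genes that were picked.

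Among the other genes of that list, those with the smallest p did not pass. Spmap2l, which resembles Spmap2 by name, had levels of -7.11 to -6.06 with both drugs, against -5.14 to -4.56 with L-DOPA, and its difference was -1.86 ± 0.37 (adjusted p = 0.0629, limma). With L-DOPA against lesioned saline it was 1.31 ± 0.37 (adjusted p = 0.193, limma). Ribc2, a protein of the doublet microtubules, had an L-DOPA difference of 1.18 ± 0.29 (adjusted p = 0.136, limma). For the lesion, Cimap1c had a difference of 1.10 ± 0.25 (adjusted p = 0.305, limma), and Tekt3, a tektin that runs inside the doublets, one of 0.93 ± 0.25 (adjusted p = 0.468, limma).

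The motors and regulators of the motile cilium gave no call. Of 33 tested genes for axonemal dyneins, radial spokes and the central pair, none passed in any comparison with limma, and the numbers with an unadjusted p under 0.05 were 2 for zonisamide, 1 for L-DOPA and 0 for the 2 others. Among all 19412 features those numbers were 2408 for zonisamide, 2192 for L-DOPA, 1646 for the lesion and 1424 for both drugs. The median differences of the 33 genes were 0.07 with zonisamide, -0.04 with L-DOPA, -0.06 for the lesion and 0.09 for both drugs. Rsph14, a radial spoke protein, had the smallest p with zonisamide at 0.79 ± 0.27 (adjusted p = 0.256, limma). Of 20 tested genes of the ciliogenesis programme, which includes the RFX factors and the dynein assembly factors, none passed, and 1 each had an unadjusted p under 0.05 for zonisamide and L-DOPA. Dnaaf1, a dynein assembly factor, had 0.80 ± 0.28 with zonisamide (adjusted p = 0.265, limma). Of 32 tested genes of the primary cilium, the solitary sensory cilium of neurons and glia, none passed, and 1, 4, 3 and 3 had an unadjusted p under 0.05 for zonisamide, L-DOPA, the lesion and both drugs.

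The level of the ependymal markers was taken on every array, dim values included. Of 22 listed, 15 were on the array and all 15 were tested, Foxj1 and Tmem212 included. Their mean level per array was -2.18 to -1.76 with both drugs, -2.13 to -2.01 with L-DOPA, -2.30 to -1.55 on the lesioned saline side and -2.26 to -1.92 on the non-lesioned side. None passed in any comparison with limma, and 3, 2, 1 and 0 had an unadjusted p under 0.05 for zonisamide, L-DOPA, the lesion and both drugs. Of all 19412 features, 2408, 2192, 1646 and 1424 did, in the same order. The list's median was 0.22 with zonisamide, -0.08 with L-DOPA, 0.20 for the lesion and 0.01 for both drugs, against -0.03, -0.03, 0.05 and -0.05 for all features. Mia had an L-DOPA difference of -1.15 ± 0.35 (adjusted p = 0.233, limma), and Ak7, an adenylate kinase of motile cilia, one of -0.73 ± 0.29 (adjusted p = 0.381, limma). Over the list, 5 of the 15 had a positive difference with L-DOPA, 10 with zonisamide, 10 with the lesion and 8 with both drugs. The part of ependymal cells in the values of the picked genes was not tested.

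Many sperm-specific genes outside these families were in the background. Of 47 listed, 41 were on the array and 19 passed the filter on dim probes. None passed a comparison with limma, and 4, 6, 3 and 0 had an unadjusted p under 0.05 for zonisamide, L-DOPA, the lesion and both drugs. Of all 19412 features, 2408, 2192, 1646 and 1424 did, in the same order. Catsperg, a subunit of the sperm calcium channel, had levels of -7.48 to -6.91 with L-DOPA, against -6.26 to -5.61 on the lesioned saline side. Its difference was -1.38 ± 0.27 with L-DOPA (adjusted p = 0.0688, limma) and 1.16 ± 0.27 with zonisamide added (adjusted p = 0.0988, limma), the reverse of Cimap2, and normexp correction brought the L-DOPA value to 5e-04. Oaz3, the antizyme of maturing sperm, had an L-DOPA difference of 0.83 ± 0.18 (adjusted p = 0.102, limma).

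Of the 9 adenylyl cyclases tested, Adcy10 is the soluble one and the rest sit in the membrane, where they are coupled to receptors. With zonisamide 1 of 9 passed, Adcy10, which was picked for it, and none passed in the 3 other comparisons with limma, where 2, 2 and 1 had an unadjusted p under 0.05 for L-DOPA, the lesion and both drugs. Of all 19412 features, 2192, 1646 and 1424 did, in the same order. Adcy4 had levels of -5.41 to -4.57 with both drugs, against -4.43 to -3.85 with L-DOPA. Its differences were -0.81 ± 0.31 for zonisamide (adjusted p = 0.319, limma) and 0.83 ± 0.31 for L-DOPA (adjusted p = 0.349, limma). Adcy5, the isoform through which dopamine receptors mainly act in striatum, had -0.39 ± 0.81 for zonisamide (adjusted p = 0.905, limma) and 0.14 ± 0.81 for L-DOPA (adjusted p = 0.974, limma), an error too wide to place it. Adcy6 had a lesion difference of 0.63 ± 0.25 (adjusted p = 0.563, limma).

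**Figure D4:**
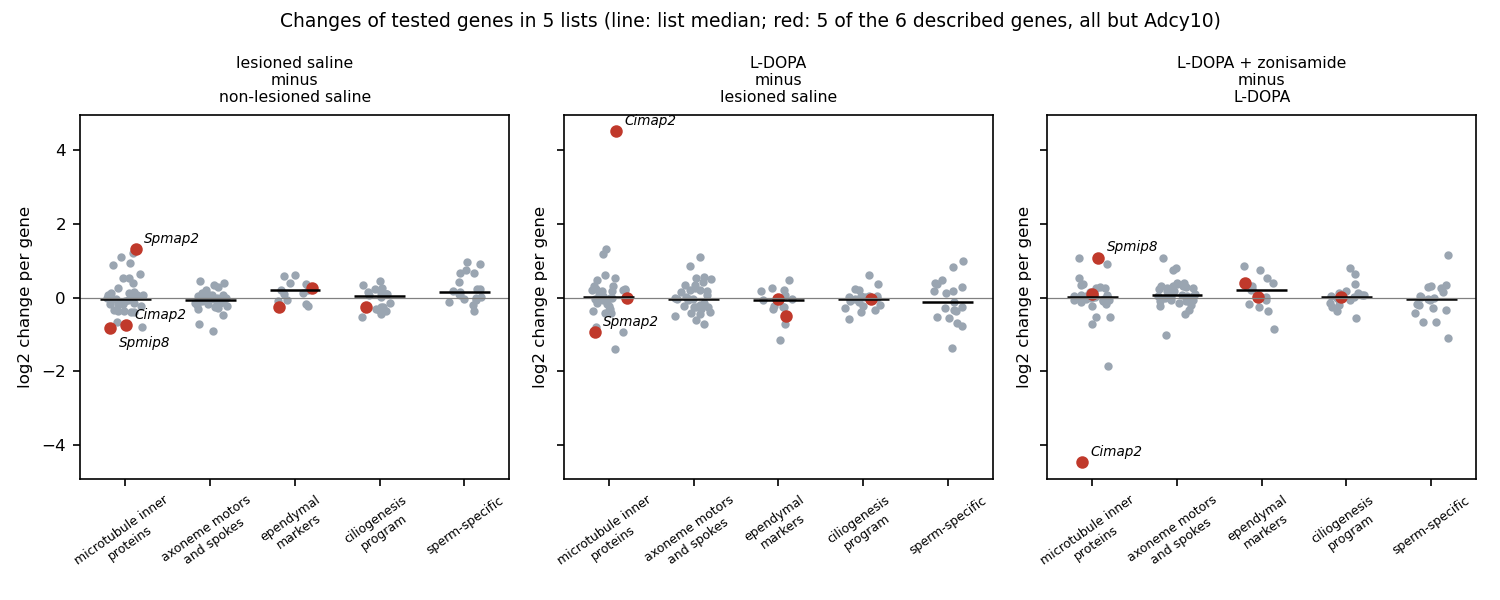
Log2 difference of every tested gene in 5 lists, for the lesion, for L-DOPA and for zonisamide added to L-DOPA; lines are list medians and red points are Cimap2, Spmap2, Spmip8, Foxj1 and Tmem212, while Adcy10 is in none of these lists. The medians lay between -0.11 and 0.22. Cimap2, picked for its size, is drawn at its measured differences of 4.50 with L-DOPA and -4.46 with zonisamide, dim values included.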

How the data were processed

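Total RNA of rat striatum was labelled with Cy3 and hybridised to 12 arrays of 62976 spots, 4259 of them controls. The authors scanned them and ran Agilent Feature Extraction, of which the file headers give version 10.7.3.1. The deposited processed signal is an intensity with background subtracted and detrended within the array, per the file headers, with no scaling across arrays. A second deposited file, which joins the intensity of all arrays, equalled the scanner values on all 62976 spots. The deposited median spot and local background intensity, without subtraction per the file headers, served the normexp alternative only, since the scanner files used hold no column of mean spot intensity.

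Control spots and spots flagged as outliers were left out, spots of a probe were averaged as log2 values, and the log2 of each array's 75th percentile was subtracted. A probe was tested if at least 0.5 of its spots were well above background on all 3 arrays of at least 1 group. Of 30367 probes, 17328 matched 1 symbol in the list of RefSeq genes and 13039 had no match. The 21469 tested probes gave 19412 features (11110 with a symbol), the probe with the highest mean standing for a gene. The number of arrays limits the precision.

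The 4 groups entered 1 linear model in limma (version 3.58.1, in R 4.3.3), with 8 residual degrees of freedom, two-sided tests and Benjamini-Hochberg adjustment over all features at 0.05. The comparisons were both drugs minus L-DOPA, both drugs minus lesioned saline, L-DOPA minus lesioned saline, and the lesioned minus the non-lesioned side after saline. The 6 genes and all gene lists were chosen with earlier results of these data known. Genes named from a list are those that passed or had the smallest p, and for each of the 6 genes the 3 features most correlated with it are named. Adenylyl cyclases, Ttr and Pdyn are named as gauges. Probes were designed on an earlier assembly than GRCr8, and no probe coordinates are given.

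The arrays came from 5 slides. Slide 1 held replicate 1 of all groups, slide 2 replicate 2 of the lesioned groups, and slide 3 non-lesioned replicate 2 next to replicate 3 of L-DOPA with and without zonisamide. The 2 remaining arrays lay alone. In the zonisamide comparison same-numbered arrays shared a slide and their deviations from the group means correlated at 0.37, 0.19 and 0.25, so the numbers pair the arrays there, and not in the other comparisons. The correlation within slides was 0.11. Alternatives were quantile normalization, normexp with an offset of 50, no filter on dim probes or one on all 12 arrays, probes of a gene averaged, a fit of only the groups compared, the replicate block, slide as a fixed or random block, and leaving out each array. Averaging spots before the log2, a fit without the 5 arrays of high spot spread, and Ttr as a covariate were added after the data were seen.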

Additional observations from a re-analysis of the deposited data

How the results depend on the processing

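The signs of the Cimap2, Adcy10 and Spmip8 differences with zonisamide, of the Cimap2 and Adcy10 differences with L-DOPA and of the Spmap2 difference with the lesion were kept in every alternative run. In several alternatives the sign could not change. The replicate block, only the groups compared, and leaving out an array of another group give the same difference as the main fit. With 1 probe per gene, so do no filter, the filter on all arrays where it keeps the gene, and averaging a gene's probes. For the zonisamide differences, slide as a fixed or random block does so too. The alternatives counted below are thus not separate tests. Calls were less stable. Cimap2 passed in 17 of 23 alternatives with L-DOPA and in 17 of 23 with zonisamide, Adcy10 in 15 of 24 and Spmip8 in 7 of 24 with zonisamide. The features that passed, 93 with zonisamide and 84 with L-DOPA, became 0 and 1 under normexp, 45 and 48 with no filter, 0 and 0 with only the groups compared, 13 and 34 with the replicate block, 0 and 0 with slide as a fixed block, 10 and 0 with Ttr as a covariate, and 1 and 1 without the 5 arrays of high spot spread. Slide as a random block gave 188 with zonisamide. Leaving out 1 array gave 0 to 253 with zonisamide and 2 to 210 with L-DOPA, 0 to 13 for the lesion and 0 to 3 for both drugs. The lowest came without replicate 2 of both drugs and without replicate 1 of lesioned saline, and both highest without replicate 1 of L-DOPA. Of the cilium, sperm and cyclase lists, the 3 genes that passed with zonisamide and the 1 with L-DOPA became 0 and 0 under normexp, with only the groups compared, with slide as a fixed block and without the 5 arrays. They became 1 and 0 with Ttr as a covariate, 1, Cimap2, with zonisamide in the replicate block, which Adcy10 and Spmip8 did not pass, 0 with L-DOPA under the filter on all arrays, which drops Cimap2, and 0 to 3 and 0 to 2 leaving out 1 array. Foxj1 changed sign for both drugs under quantile normalization (0.0688), for the lesion with slide fixed (0.15) or Ttr as a covariate (0.10), and for zonisamide under normexp (-0.0035) or without the 5 arrays (-0.18). Leaving out 1 array, Foxj1 ranged from -0.23 to 0.27 with zonisamide, -0.29 to 0.22 with L-DOPA, -0.57 to 0.17 for the lesion and -0.20 to 0.12 for both drugs. Tmem212 ranged from -0.0021 to 0.43 for the lesion and -0.28 to 0.16 for both drugs, Mia from -0.70 to 0.0553 for both drugs, and Adcy5 from -1.02 to 0.31 with zonisamide and -0.29 to 0.79 with L-DOPA. Adcy5 with L-DOPA was -0.29 without the 5 arrays. Under normexp Adcy3 with both drugs was -0.0107, Adcy6 -0.0358, Fank1 -0.0866 and Cep290 0.12 for the lesion, and Catsperg 5e-04 with L-DOPA. Zpbp2 with both drugs was 0.0221 as the mean of its probes. The rise of Pdyn with L-DOPA lost its call in 8 alternatives and kept its sign. The causes were not tested, except that only the groups compared, and the fits without arrays, rest on fewer arrays.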

Other observations

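Single genes of the primary cilium, the sensory cilium of neurons and glia, also gave differences that did not pass. Ttc8, a subunit of the BBSome that carries receptors in and out of the cilium, had levels of -3.30 to -2.49 with both drugs, against -4.88 to -3.71 with L-DOPA. Its difference was 1.19 ± 0.34 log2 units for zonisamide added to L-DOPA (adjusted p = 0.172, limma) and -0.82 ± 0.34 for L-DOPA against lesioned saline (adjusted p = 0.400, limma). Kif7, a kinesin of the Hedgehog pathway at the cilium tip, had -1.16 ± 0.45 for both drugs against lesioned saline (adjusted p = 0.656, limma) and 1.19 ± 0.45 for the lesion (adjusted p = 0.552, limma). Neither passed, and the comparisons share arrays.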
